A study of Mus musculus with 10 samples.

Results

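The annexin and S100 genes examined here are 10 rows of the deposited table, *Anxa1*, *Anxa2*, *Anxa3*, *Anxa5*, *Anxa6*, *S100a4*, *S100a6*, *S100a10*, *S100a11* and *S100a13*, taken by their symbols. All 10 were present among the 14623 rows. Transcripts of single cells were captured on microwell arrays (Seq-Well S3) from the stromal vascular fraction (SVF) of inguinal white adipose tissue (iWAT), the subcutaneous fat pad at the groin. One group is a mouse without *Bbs8*, a subunit of the BBSome, a protein complex that moves cargo in and out of the primary cilium (Bbs8-/-, labelled Bbs8 KO). The other is a Bbs8+/+ mouse (Bbs8 WT), and both were lean and 7 weeks old. The deletion is present in every cell of the body, so the immune, endothelial and stromal cells of the Bbs8 KO mouse all lacked the gene.

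The design text names 1 mouse per genotype. No test between genotypes was therefore possible, and every interval given below is an exact interval for counting error, never for the difference between animals. The table held 8985 cells of the Bbs8 KO and 1929 of the Bbs8 WT mouse in 5 barcode sets each, with 3144195 and 715989 UMIs (unique molecular identifiers, each standing for 1 captured transcript). A set held 1635 to 2005 Bbs8 KO or 196 to 768 Bbs8 WT cells. The median cell had 251 and 278 UMIs. Sets carry codes (KO5, KO6, WT3 and WT4, each with a portion number) that the sources do not explain and that could not be tied to single labelled samples, so their spread was not taken as that of animals. Of 10847 barcodes, 36 occurred in more than 1 set. *Ttc8*, the gene of BBS8, had 0 of the 3144195 Bbs8 KO UMIs and 5 of the 715989 Bbs8 WT UMIs. This is the direction of the labels, and no test was run on these few counts.

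Annexins bind phospholipid membranes when calcium is present and take part in membrane repair, vesicle traffic and the anchoring of actin at the membrane. S100 proteins are small calcium sensors with EF-hand motifs that mostly work as dimers. The families meet in defined pairs: S100A10 joins ANXA2 in a complex at the plasma membrane that also binds AHNAK, and S100A11 binds ANXA1. In fat, the stromal progenitors of adipocytes fall into subtypes named P1, the stem-cell-like population marked by *Dpp4* and *Pi16*, P2, which is closer to the adipocyte and marked by *Icam1* and *Col15a1*, and P3, a regulatory population marked by *F3*.

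Cells were clustered without any annexin or S100 gene among the features, and clusters were named from fixed markers. P1-like cells numbered 368 in the Bbs8 KO and 152 in the Bbs8 WT mouse, P2-like cells 608 and 282, and P3-like cells 118 and 80. A further 855 and 258 stromal cells had no leading subtype and are called marker-poor stromal. The summed level of the P1 marker list was 8473 CPM (UMIs scaled by the class total) in P1-like cells of the Bbs8 KO and 8435 CPM in those of the Bbs8 WT mouse, against 757 and 699.7 CPM in P2-like cells, and the P2 and P3 lists were likewise highest in stroma in the classes named for them. The P2 list summed to 11920 CPM in P2-like cells of the Bbs8 KO mouse and to 17831 CPM in those of the Bbs8 WT mouse. In marker-poor stromal cells it summed to 5203 and 10500 CPM. These lists also named the classes, so their levels are no independent check of the names. All stromal cells together held 839699 and 330929 UMIs.

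Of the S100 genes, all 5 lie on mouse chromosome 3 in the GENCODE vM21 annotation of GRCm38 (mm10). *S100a13* (chr3:90514435-90524581), *S100a4* (chr3:90603771-90606045) and *S100a6* (chr3:90612882-90624181) stand close together, and *S100a11* (chr3:93520488-93526287) and *S100a10* (chr3:93555080-93564643) form a second pair, all on the plus strand. The annexins are dispersed, with *Anxa5* at chr3:36448923-36475894, *Anxa3* at chr5:96793339-96845966, *Anxa2* at chr9:69453620-69491795, *Anxa6* at chr11:54979108-55033445 and *Anxa1* at chr19:20373428-20390944. *Anxa5*, *Anxa6* and *Anxa1* lie on the minus strand and the other 2 on the plus strand. *S100a4* shares its span with *Gm42674*, a coding model of the same strand, *Anxa2* with the antisense gene *Gm16144*, and *Anxa1* with the noncoding *1500015L24Rik* of the opposite strand. Whether the counting used strand was not stated, so reads of such overlaps could not be separated.

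Promoters of 7 of the 10 members were in the RefSeq table (GRCm38.p6). The 150 bases before the RefSeq start are shown, 5′ to 3′, for 3 of the 4 S100 genes whose stromal level was lower in the Bbs8 KO mouse by at least 1.5-fold, and for the 4 members with a promoter in the table where it was not, so that both kinds can be set side by side. Capitals mark TATAAA (the TATA box), GGGCGG (the GC box) and TGANTCA (the AP-1 site), searched on both strands, and no matches overlapped.
S100a6 (chr3:90612744-90612893, plus): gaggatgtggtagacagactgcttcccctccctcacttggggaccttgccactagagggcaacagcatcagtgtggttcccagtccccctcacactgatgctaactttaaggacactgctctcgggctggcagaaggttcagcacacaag
S100a11 (chr3:93520346-93520495, plus): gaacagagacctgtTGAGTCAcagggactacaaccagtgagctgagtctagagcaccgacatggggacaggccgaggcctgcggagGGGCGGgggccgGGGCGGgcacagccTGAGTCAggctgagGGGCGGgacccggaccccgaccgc
S100a13 (chr3:90514285-90514434, plus): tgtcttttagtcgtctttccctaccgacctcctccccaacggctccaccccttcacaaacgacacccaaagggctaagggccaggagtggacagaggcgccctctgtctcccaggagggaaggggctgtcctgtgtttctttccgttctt
S100a4 (chr3:90603620-90603769, plus): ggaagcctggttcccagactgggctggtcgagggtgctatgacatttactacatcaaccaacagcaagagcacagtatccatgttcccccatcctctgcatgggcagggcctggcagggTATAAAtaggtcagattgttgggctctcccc
Anxa1 (chr19:20390672-20390821, minus): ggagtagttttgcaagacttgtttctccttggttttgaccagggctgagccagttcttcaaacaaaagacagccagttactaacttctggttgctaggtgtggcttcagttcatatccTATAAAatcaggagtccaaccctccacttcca
Anxa2 (chr9:69453533-69453682, plus): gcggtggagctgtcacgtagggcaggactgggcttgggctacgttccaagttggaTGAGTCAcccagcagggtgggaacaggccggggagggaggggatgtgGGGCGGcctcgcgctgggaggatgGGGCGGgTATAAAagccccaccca
Anxa5 (chr3:36475888-36476037, minus): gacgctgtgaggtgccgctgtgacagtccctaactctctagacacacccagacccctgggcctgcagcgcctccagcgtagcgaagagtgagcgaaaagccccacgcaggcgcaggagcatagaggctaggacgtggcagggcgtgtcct

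*S100a4*, *Anxa1* and *Anxa2* each held TATAAA within these bases, a motif in 7.57% of all 32851 promoter windows of the same length. *S100a11* held TGANTCA 2 times and GGGCGG 3 times, motifs found in 4.24% and 28.6% of all windows, and *Anxa2* held both as well. *S100a6*, *S100a13* and *Anxa5* held none of the 3, so that members of both kinds lacked them. A match of letters is a description of the window and not a measured site.

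The 10 genes differed widely in where they were found. *Anxa3* and *Anxa1* were highest in P1-like cells, *Anxa5* in P2-like cells, *Anxa6* in T cell-like cells and *S100a4* in monocyte-like cells, of 12 classes compared in both mice. *Anxa2*, *S100a6* and *S100a10* were spread over all stromal classes, and *S100a11* and *S100a13* had few UMIs. Levels are CPM, the UMIs of a gene scaled by all UMIs of the summed cells of a class, and because the assay counts transcript ends they were compared between classes and not between genes.

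**Figure D1:**
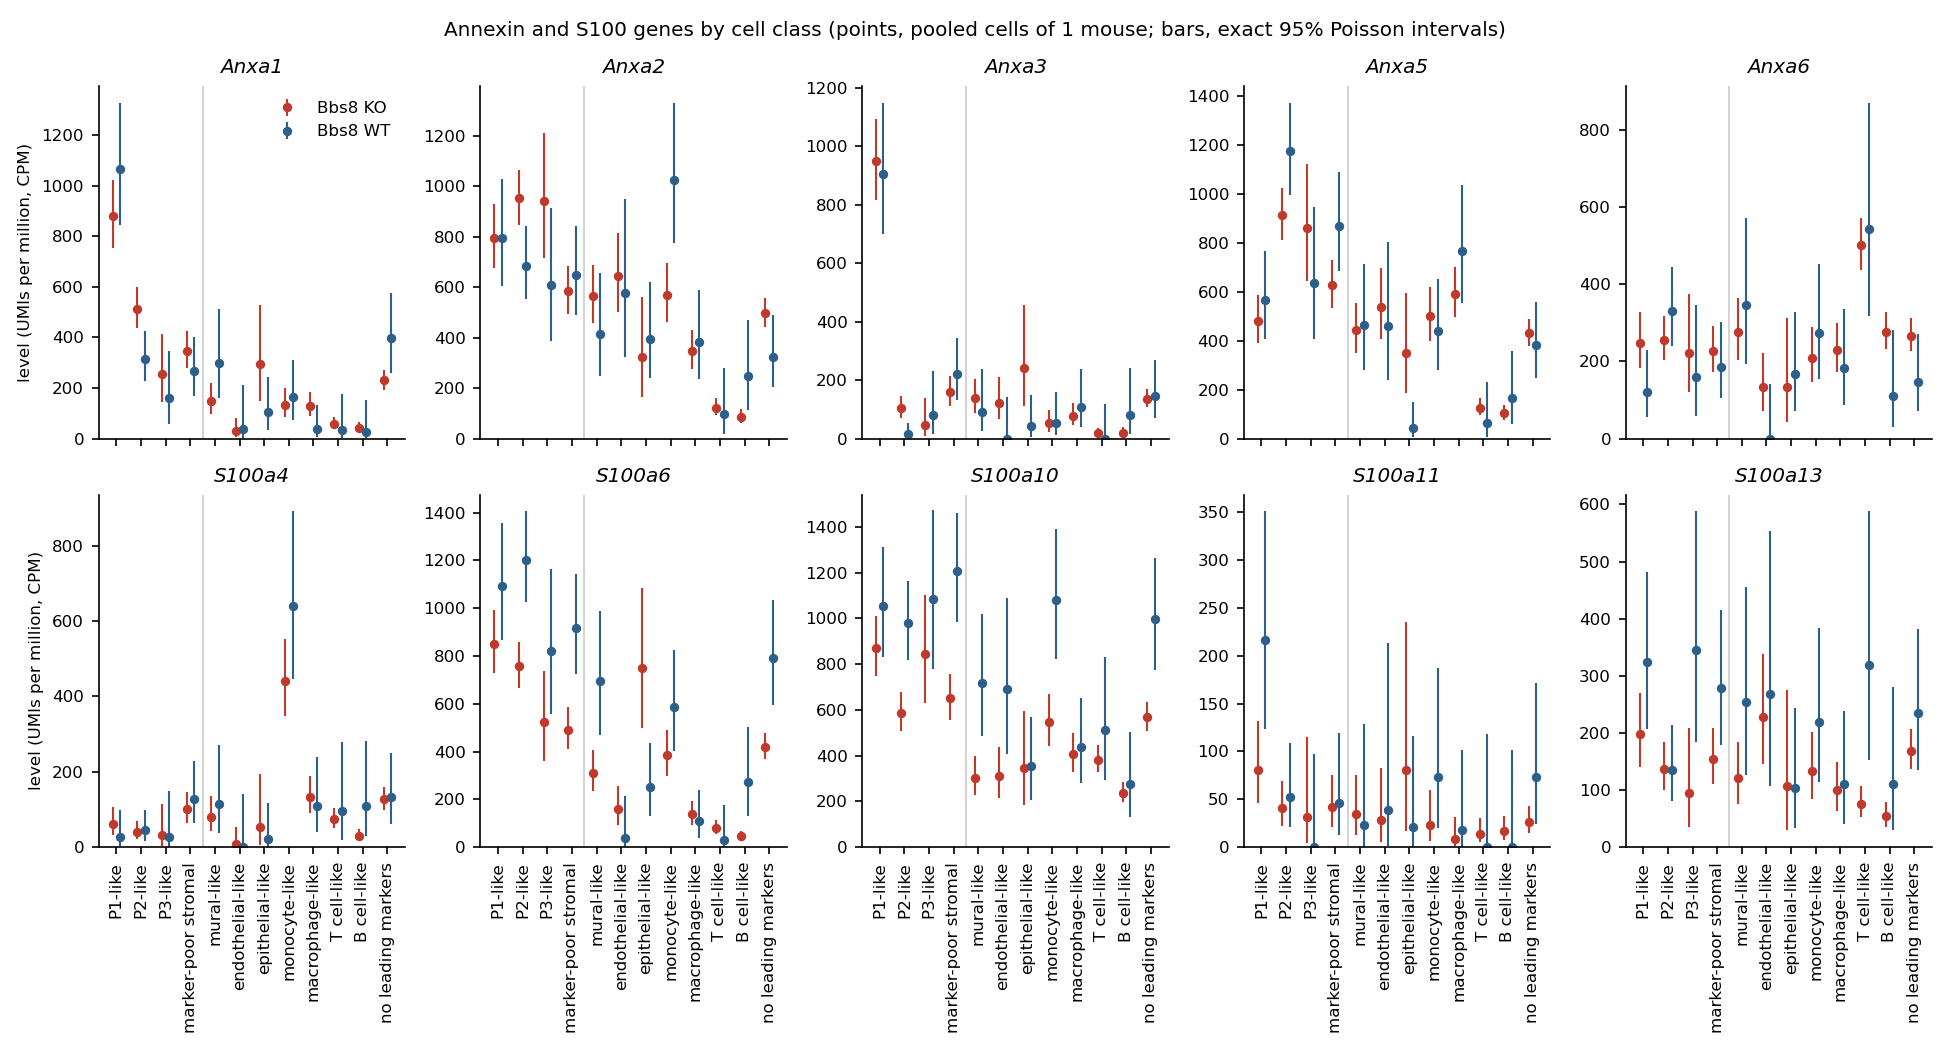
Level in CPM (y axis, linear) of the 10 genes in 12 cell classes (x axis, with stromal classes left of the grey line), red for Bbs8 KO and blue for Bbs8 WT. Points are pooled cells of 1 mouse and bars exact 95% Poisson intervals. *Anxa3* stood near 948 and 904 CPM in P1-like cells and lower in every other class shown, while *S100a4* was highest in monocyte-like cells.

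*Anxa3* encodes an annexin known from neutrophils. In P1-like cells of the Bbs8 KO mouse it measured 1044, 898, 788, 813 and 1229 CPM in the 5 sets, and in those of the Bbs8 WT mouse 421, 1021, 717, 1155 and 629 CPM. In P2-like cells the Bbs8 KO sets had 75.9, 90.5, 131, 67.8 and 131 CPM, and of the Bbs8 WT sets 4 had 0 UMIs and 1 had 69.2 CPM. All sets of P1-like cells thus stood above all sets of P2-like cells. The share of all genes whose sets order 2 subtypes in this way was not computed, here or for the genes below. The log2 ratio of P1-like over P2-like cells was 3.14 (counting interval 2.66 to 3.78) in the Bbs8 KO mouse and 5.50 (4.0 to 8.98) in the Bbs8 WT mouse, where it rests on 2 UMIs in P2-like cells. P3-like cells had 47.8 and 79.5 CPM and marker-poor stromal cells 158 and 220.4 CPM. Outside the stroma, epithelial-like cells of the Bbs8 KO mouse had 241 CPM (110.2 to 457.5) and 61 dendritic-like cells 374.5 CPM (171 to 711), and T cell-like and B cell-like cells 18.5 and 20.8 CPM.

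*Anxa1*, the gene of a phospholipase-inhibiting and anti-inflammatory annexin, was graded over the stroma. P1-like sets measured 870.1, 626, 860.0, 1017 and 1003 CPM in the Bbs8 KO mouse and 843, 1021, 1672, 918 and 1384.5 CPM in the Bbs8 WT mouse. P2-like sets measured 531, 308, 619.7, 509 and 538 CPM in the Bbs8 KO mouse and 273.5, 437, 553, 315.5 and 173 CPM in the Bbs8 WT mouse. In each mouse the P1-like sets did not overlap with the P2-like sets, again with no share over all genes computed. P3-like cells had 255 CPM (146 to 414) and 159 CPM (58.4 to 346), less than P1-like cells in each mouse beyond counting error. Endothelial-like cells had 28.4 and 38.3 CPM, near the 41.5 and 27.4 CPM of B cell-like cells.

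*Anxa5*, whose protein binds phosphatidylserine and is used to stain dying cells, ran the other way. P2-like cells had 914 CPM (812 to 1025) in the Bbs8 KO and 1174 CPM (997 to 1373) in the Bbs8 WT mouse, against 482 CPM (389.7 to 589) and 567 CPM (408.5 to 766) in P1-like cells. The P1-like value was below the P2-like value in 5 of 5 sets of each mouse. Macrophage-like cells had 592 and 768 CPM, monocyte-like cells 500.3 and 439 CPM and endothelial-like cells 539 and 460.1 CPM, so *Anxa5* was not confined to stroma. T cell-like cells had 127 and 63.9 CPM.

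*Anxa2*, which links membranes to actin and serves as a surface receptor for plasminogen with its S100 partner, did not separate the subtypes. Its P1-like over P2-like log2 ratio was -0.26 (-0.54 to 0.03) in the Bbs8 KO and 0.22 (-0.28 to 0.71) in the Bbs8 WT mouse. Among other cells, the monocyte-like class had 570.1 CPM (463 to 695) in the Bbs8 KO and 1025 CPM (774 to 1331) in the Bbs8 WT mouse. B cell-like and T cell-like cells of the Bbs8 KO mouse had 87.2 and 122 CPM.

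*Anxa6*, a large annexin with a duplicated core, was highest of the 12 classes in T cell-like cells, with 500.7 CPM (436 to 572) in the Bbs8 KO and 543.5 CPM (317 to 870.3) in the Bbs8 WT mouse. The next class, B cell-like in the Bbs8 KO mouse, had 276 CPM (231 to 327) and differed beyond counting error. Outside the 12 classes, mitotic cells of the Bbs8 KO mouse had 557 CPM (386 to 778). In the Bbs8 WT mouse, T cell-like cells and the class next below them could not be separated. The stromal classes lay between 223 and 256.5 CPM in the Bbs8 KO mouse and between 121.5 and 331 CPM in the Bbs8 WT mouse.

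*S100a4*, a binder of the heavy chain of non-muscle myosin that marks motile fibroblasts and myeloid cells, was low in stroma. Monocyte-like cells had 442 CPM (348 to 553) in the Bbs8 KO and 640.5 CPM (446 to 891) in the Bbs8 WT mouse, and macrophage-like cells 134 and 109.7 CPM. Outside these 12 classes, dendritic-like cells of the Bbs8 KO mouse had 707 CPM (412 to 1132.5). In the Bbs8 KO mouse the P1-like, P2-like and P3-like classes had 12, 13 and 2 UMIs, which is 60.8, 40.7 and 31.9 CPM.

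*S100a6* (calcyclin) was highest in P1-like and P2-like cells, with 852 CPM (728 to 991) and 757 CPM (665 to 859) in the Bbs8 KO mouse, and 1093 CPM (868 to 1359) and 1204 CPM (1024.5 to 1405) in the Bbs8 WT mouse. Neither mouse separated P1-like from P2-like cells. P3-like cells were lower than P2-like cells in 5 of 5 sets of each mouse, with a log2 ratio of -0.52 (-1.10 to 0.00) in the Bbs8 KO and -0.55 (-1.16 to 0.01) in the Bbs8 WT mouse. Macrophage-like cells had 138 and 109.7 CPM and T cell-like cells 80.8 and 32.0 CPM. In epithelial-like cells the value was higher in the Bbs8 KO mouse, but below the minimum of 50 UMIs for a comparison and with overlapping sets, with 28 UMIs or 749.9 CPM (498 to 1084) in the Bbs8 KO mouse and 12 UMIs in the Bbs8 WT mouse (129 to 437 CPM), a log2 ratio of 1.57 (0.56 to 2.70). Pericyte and smooth muscle markers in that class summed to 295 and 2062.5 CPM, and their part was not tested.

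*S100a10*, the partner of ANXA2 that lacks calcium binding, was broader. P1-like cells had 872 CPM (747 to 1013) and 1053 CPM (832 to 1314), and P3-like cells 844 CPM (632 to 1104) and 1087 CPM (779.8 to 1474). P2-like cells of the Bbs8 KO mouse had 588 CPM (507 to 678.5), below P1-like cells in 5 of 5 sets, whereas those of the Bbs8 WT mouse had 978 CPM (817 to 1161). T cell-like cells had 383 CPM (327 to 446) and 512 CPM (292 to 831), and the lowest of the 12 classes, B cell-like, 237 and 274 CPM. Outside the 12 classes, mitotic cells had 950.0 CPM (721 to 1228) and 899.5 CPM (542 to 1405), and dendritic-like cells of the Bbs8 KO mouse 208 CPM (67.5 to 485.5).

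*S100a11* had only 42 UMIs in all stromal cells of the Bbs8 KO mouse and 27 in those of the Bbs8 WT mouse. P1-like cells had 81.1 CPM (46.4 to 132) and 216 CPM (123 to 351), first in the order of the 12 classes in each mouse. In the Bbs8 KO mouse epithelial-like cells stood next at 80.3 CPM (16.6 to 235) and no neighbours differed beyond counting error. *S100a13*, which helps FGF1 leave cells without a signal peptide, had 129 and 79 UMIs in stroma. No neighbours in its order of 12 classes differed beyond counting error in either mouse.

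**Figure D2:**
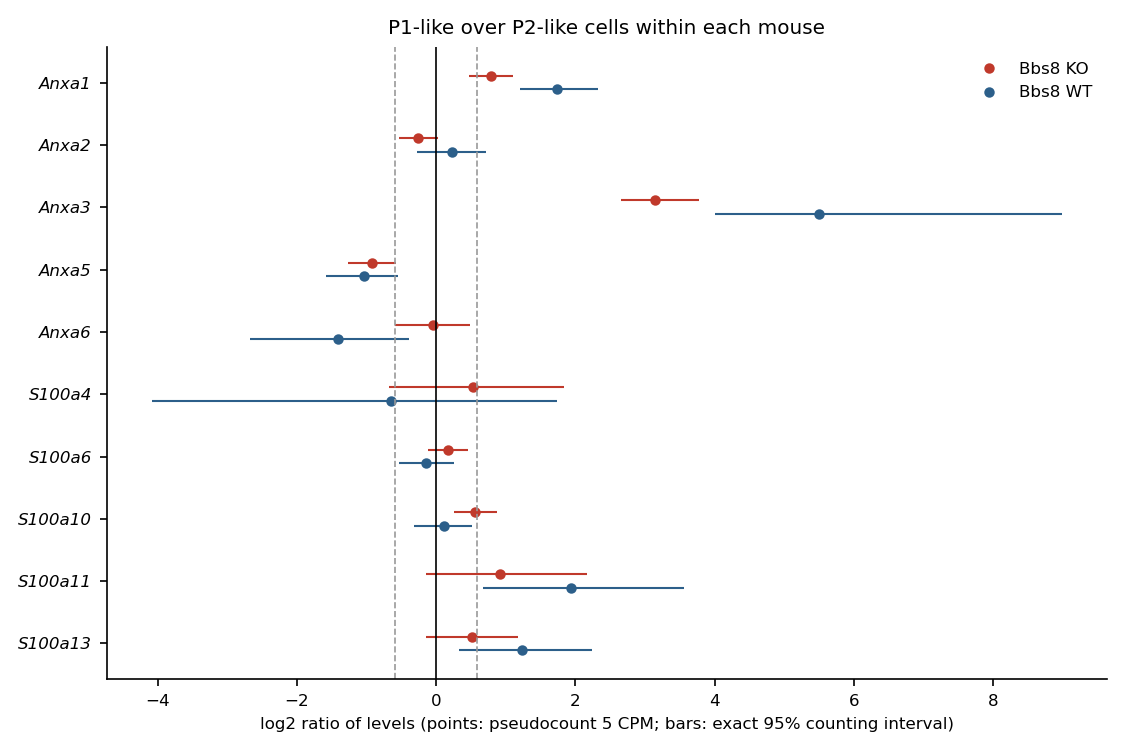
Log2 ratio of P1-like over P2-like cells (x axis) of the 10 genes within the Bbs8 KO (red) and the Bbs8 WT mouse (blue). Points carry 5 CPM in both levels, bars are exact 95% counting intervals of the plain ratio and dashed lines mark 1.5-fold. *Anxa1* and *Anxa3* lay to the right of 0 and *Anxa5* to the left in both mice.

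The comparison of P1-like with P2-like cells asks which members mark the stem-cell-like subtype. With at least 50 UMIs in both classes together, 8 members could be compared in the Bbs8 KO mouse. *Anxa1* and *Anxa3* were higher by at least 1.5-fold and *Anxa5* lower, against 15.6% of 1629 genes that were higher and 25.4% that were lower. In the Bbs8 WT mouse 7 members could be compared. *Anxa1* and *Anxa3* were higher and *Anxa5* and *Anxa6* lower, against 23.2% and 26.5% of 479 genes. *Anxa3* reached the minimum through 67 UMIs of the P1-like class, against 2 of the P2-like class. *Anxa6* reached it with 9 UMIs of the P1-like class and 44 of the P2-like class. The place of both among the compared members thus rests on the class where each was high, and the counts of calls depend on the minimum. The median over members was 0.34 in the Bbs8 KO and 0.11 in the Bbs8 WT mouse, and over all genes -0.17 and -0.06. These are descriptions, because classes came from the same cells, although no member took part in clustering or naming.

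Between genotypes, 4 of the 5 S100 genes read lower in the stroma of the Bbs8 KO mouse. *S100a6*, *S100a10*, *S100a11* and *S100a13* differed by at least 1.5-fold, and *S100a4* and the 5 annexins did not. The count of 4 was 0 without stromal cells that held an immune marker, and 1 or 2 in the 4 pairings of a Bbs8 KO with a Bbs8 WT set number. The S100 genes were not tested against the annexins. All 10 members had at least 50 UMIs in stroma. Over all 3902 genes with that depth, 9.3% were lower and 17.3% higher by 1.5-fold, and 0 members were higher. Among genes with at least 500 stromal UMIs, as *S100a6* and *S100a10* have, 14.1% were lower. The median log2 ratio of Bbs8 KO over Bbs8 WT was -0.13 over members and 0.05 over all genes, with 5 CPM added before logarithms. Less RNA of a gene per cell and fewer cells that express it cannot be told apart from summed levels.

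*S100a6* measured 752, 579, 685, 776 and 617 CPM in the 5 Bbs8 KO sets of stromal cells, and 1038, 908, 841, 1284 and 866.5 CPM in the Bbs8 WT sets. Every Bbs8 KO set lay below every Bbs8 WT set, a pattern that 2.67% of the 3902 genes showed, with 4.59% in the opposite direction. Among the 205 genes with at least 500 stromal UMIs, a depth limit set after the values were seen, 19.5% showed it, so the separation alone does not set *S100a6* apart from genes of its depth. The pooled levels were 680.0 CPM (625 to 738) in the Bbs8 KO and 1061 CPM (953 to 1178) in the Bbs8 WT mouse, a log2 ratio of -0.64 (-0.84 to -0.45).

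*S100a10* measured 635, 667.5, 680.3, 939.5 and 579 CPM in the Bbs8 KO sets and 909, 1373, 1262, 965 and 1066 CPM in the Bbs8 WT sets. The groups overlapped by the 1 Bbs8 KO set at 939.5 CPM, which stood above the lowest Bbs8 WT set. Its log2 ratio was -0.62 (-0.82 to -0.43), from 693 CPM (638 to 752) and 1067 CPM (958 to 1184). *S100a6* and *S100a10* thus differed between the mice by nearly the same factor, 1.56-fold and 1.54-fold.

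*S100a13* measured 197, 121, 148, 117 and 177 CPM in the Bbs8 KO sets and 281, 343, 70.1, 251 and 187 CPM in the Bbs8 WT sets. The groups overlapped, and 1 Bbs8 WT set was the lowest of all. Its log2 ratio was -0.62 (-1.05 to -0.21). *S100a11*, at 36.0 to 67.6 CPM by its counting interval in the Bbs8 KO and 53.8 to 119 CPM in the Bbs8 WT mouse, had a log2 ratio of -0.65 (-1.44 to 0.05) that counting error alone does not separate from 0. *S100a4*, with 63.1 and 60.4 CPM, had a log2 ratio of 0.06 (-0.70 to 0.88).

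**Figure D3:**
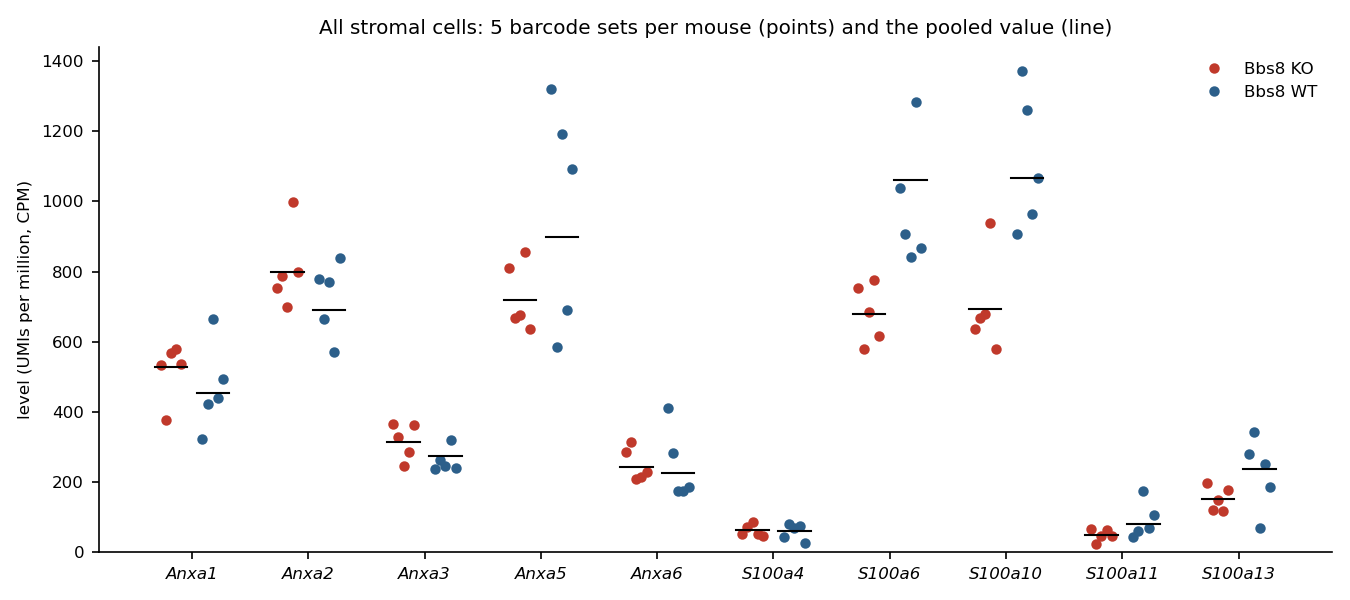
Level in CPM (y axis, linear, from 0) of the 10 genes in all stromal cells of each barcode set. Red points are the 5 Bbs8 KO sets, blue points the 5 Bbs8 WT sets, and black lines the pooled level. For *S100a6* the red points, 579 to 776 CPM, lie below all blue points, 841 to 1284 CPM.

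No annexin passed 1.5-fold in stroma. *Anxa2*, whose protein pairs with that of *S100a10*, measured 752, 788, 699, 998 and 799 CPM in the Bbs8 KO sets and 779, 666, 771, 569.9 and 839.8 CPM in the Bbs8 WT sets. These ranges overlapped, and the log2 ratio was 0.21 (-0.01 to 0.43). *Anxa1*, the partner of *S100a11*, had 529 CPM (481 to 580.3) and 453 CPM (384 to 532), a log2 ratio of 0.22 (-0.05 to 0.50).

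*Anxa5* was lower in the Bbs8 KO mouse, with 719 CPM (663 to 779) against 897.5 CPM (798 to 1006) and a log2 ratio of -0.32 (-0.52 to -0.11), short of 1.5-fold. Its Bbs8 WT sets were uneven, at 1320, 585, 1191.5, 691 and 1093 CPM, and straddled the Bbs8 KO sets of 636 to 855 CPM. *Anxa3* and *Anxa6* had log2 ratios of 0.19 (-0.16 to 0.55) and 0.10 (-0.29 to 0.50).

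**Figure D4:**
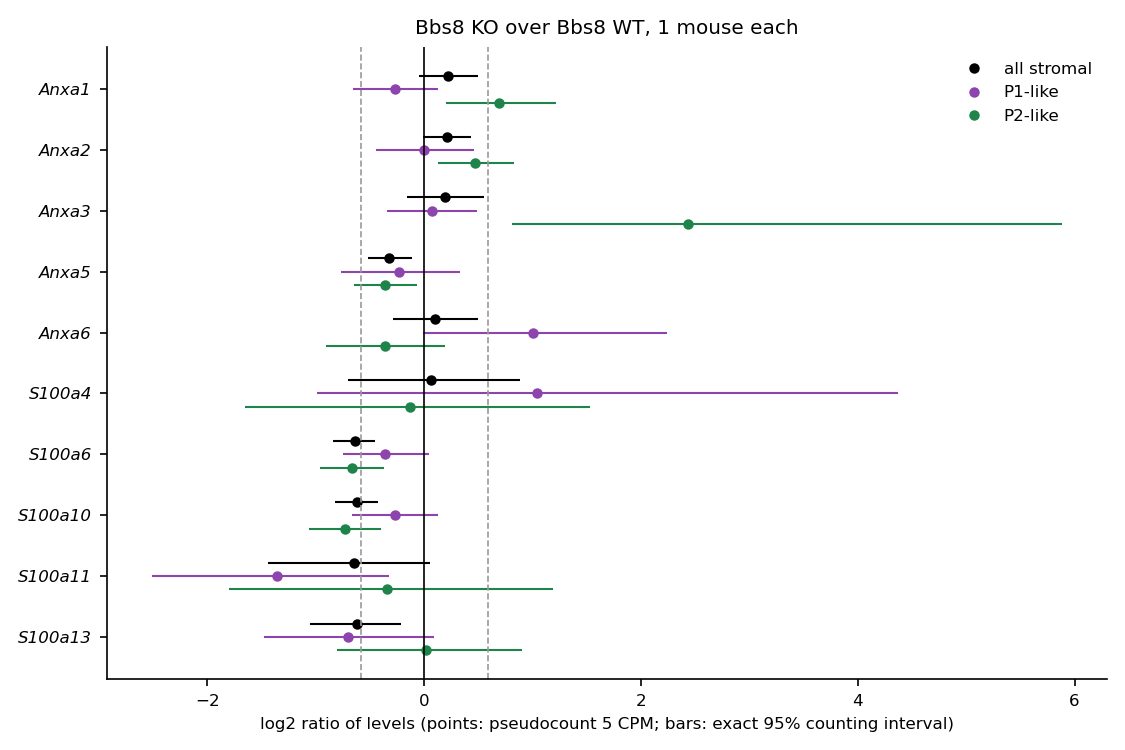
Log2 ratio of Bbs8 KO over Bbs8 WT (x axis) of the 10 genes in all stromal cells and in the P1-like and P2-like cells. Points carry 5 CPM in both levels, bars are exact 95% counting intervals of the plain ratio and dashed lines mark 1.5-fold. *S100a6* and *S100a10* lie left of 0 in all stromal cells and in P2-like cells, with intervals that leave out 0.

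Scaling moved these ratios together. With TMM factors in place of total UMIs the stromal log2 ratios shifted by -0.18, and with DESeq2 size factors by -0.21. The genes called higher and lower over the whole stroma then went from 676 and 363 to 452 and 680 with TMM. *S100a6* and *S100a10* read -0.82 and -0.80 with TMM, *Anxa1* and *Anxa2* 0.04 and 0.02, and the small ratios of *Anxa6* and *S100a4* turned negative, at -0.09 and -0.13. The gap between *S100a10* and *Anxa2* stayed at about the same size, since a factor moves both alike.

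In P1-like cells 8 members had the depth to be compared. *Anxa6* was higher in the Bbs8 KO mouse, where 13.9% of 655 genes were, and *S100a13* lower, where 13.1% were. *Anxa6* passed the minimum of 50 UMIs through its 49 UMIs in the Bbs8 KO mouse, so its place among the compared members rests on the group where it was high and supports nothing. The median over members was -0.25 and over all genes -0.02. *Anxa6* measured 203, 299, 191, 271 and 276 CPM in the Bbs8 KO sets and 105, 186, 0.0, 119 and 126 CPM in the Bbs8 WT sets. The groups did not overlap, but the share of all genes with separated sets was not computed for P1-like cells. The Bbs8 WT level rests on 9 UMIs, and the log2 ratio of 1.00 had an interval of -0.01 to 2.24. With cells thinned to 200 UMIs its direction turned, to -0.51. *S100a13* had a log2 ratio of -0.70 (-1.48 to 0.09) with overlapping sets, which counting error does not separate from 0. It read -0.45 without WT4_p2, and its call was also lost without KO5_p3 and with thinned cells. *S100a6* and *S100a10* had log2 ratios of -0.36 (-0.75 to 0.04) and -0.27 (-0.67 to 0.13), which counting error does not separate from 0. *Anxa3*, the gene most concentrated in P1-like cells by its ratio to P2-like cells, differed little between the mice there, at 0.07 (-0.34 to 0.49).

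In P2-like cells 7 members could be compared. *Anxa1* was higher in the Bbs8 KO mouse by at least 1.5-fold, as were 16.9% of 1396 genes, and *S100a6* and *S100a10* were lower, as were 13.1%. The members' median was -0.36 against 0.00 over all genes. *S100a6* measured 816, 669, 810.4, 797 and 683.5 CPM in the Bbs8 KO sets and 1231, 1475, 921, 1345 and 831 CPM in the Bbs8 WT sets, at a log2 ratio of -0.67 (-0.96 to -0.37). The sets did not overlap, by the narrow gap of 816 to 831 CPM. The share of all genes with separated sets was not computed for P2-like cells. *S100a10* had a log2 ratio of -0.73 (-1.06 to -0.40) with overlapping sets. The P2 marker list was lower in the same cells of the Bbs8 KO mouse (11920 and 17831 CPM). Lists of other cells were higher there, the B cell list at 741.5 and 210.7 CPM, the T cell list at 466.2 and 112.9 CPM and the macrophage list at 575.7 and 150.5 CPM. The part of these lists in the ratios was not tested. *Anxa1* stood at 0.69 (0.20 to 1.22) and *Anxa2* at 0.47 (0.13 to 0.83), opposite in sign to *S100a6* and *S100a10*. *Anxa5* at -0.36 (-0.65 to -0.07) and *Anxa6* at -0.36 (-0.91 to 0.19) had the same sign as *S100a6* and *S100a10*. The value of *Anxa1* was 0.02 with cells called by markers and with the sets of KO5 over those of WT3, which ends its call. *Anxa3* had 33 UMIs in the Bbs8 KO and 2 in the Bbs8 WT mouse, a log2 ratio of 2.43 with a counting interval of 0.81 to 5.88, under the minimum of 50 UMIs. It lay between 1.74 and 4.44 with 1 set left out (WT4_p2 or WT4_p3) and turned to -0.19 with cells called by markers. Whether ratios differ between P1-like and P2-like cells was not tested.

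In marker-poor stromal cells *S100a6* and *S100a10* both read -0.89, with intervals of -1.31 to -0.47 and -1.25 to -0.53. In this class the pan-stromal marker list differed too, at 42091 CPM in the Bbs8 KO and 85720 CPM in the Bbs8 WT mouse, as did the T cell list at 1553.5 and 290.1 CPM and the B cell list at 1792 and 278.5 CPM. The part of these in the S100 ratios was not tested. P3-like cells had -0.64 (-1.40 to 0.11) and -0.36 (-0.98 to 0.26). The lower values were not limited to stroma. In cells called pericyte-like and smooth muscle-like, a mixed class that also carried endothelial genes such as *Plvap* and *Vwf*, *S100a6* read -1.15 (-1.83 to -0.47) and *S100a10* -1.22 (-1.90 to -0.55), each with every Bbs8 KO set below every Bbs8 WT set. The Bbs8 WT values rest on 30 and 31 UMIs, and the share of all genes with separated sets was not computed for this class. The B cell list in this class summed to 1585 CPM (1228.5 to 2078.5 over sets) and 324 CPM (0.0 to 575) and the T cell list to 1172 and 693.5 CPM, and their part was not tested. Endothelial-like cells had -1.13 (-2.01 to -0.23) for *S100a10*, and monocyte-like cells -0.98 (-1.47 to -0.49). The B cell list summed to 757 CPM (330.3 to 889.7 over sets) and 153 CPM (0.0 to 308.0) in endothelial-like cells and to 1303 and 476 CPM in monocyte-like cells. In the latter the macrophage list summed to 3327 and 5289 CPM and the endothelial list to 349 and 73.2 CPM, and the part of these lists was not tested. *Anxa2* was also lower in monocyte-like cells, at -0.84 (-1.33 to -0.35).

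*S100a6* did not follow in all of these, with 17 UMIs in the Bbs8 KO and 1 in the Bbs8 WT mouse in endothelial-like cells (1.94, -0.61 to 7.45) and -0.60 (-1.24 to 0.05) in monocyte-like cells. Cells with no leading markers read -0.91 (-1.35 to -0.46) for *S100a6*, with every Bbs8 KO set below every Bbs8 WT set, and -0.81 (-1.20 to -0.42) for *S100a10*. The share of all genes with separated sets was not computed for this class. There the B cell list summed to 2368 and 999 CPM, the T cell list to 2111 and 1028 CPM and the pan-stromal list to 24356 and 31888 CPM, and their part was not tested. The class pools a cluster of 2307 and 237 cells (Bbs8 KO, then Bbs8 WT) with a smaller one of 132 and 32 cells. *S100a6* was among the leading genes of the smaller cluster, and the part of this mix in its ratio was not tested.

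For *S100a6* and *S100a10*, no difference was detectable at this depth in 2 other immune classes. Macrophage-like cells read -0.11 (-0.77 to 0.60) for *S100a10* and T cell-like cells -0.41 (-1.16 to 0.42), and *S100a6* read 0.32 (-0.94 to 1.88) and 1.21 (-1.24 to 6.68) there, from under 50 UMIs. *S100a13* had 33 UMIs in T cell-like cells of the Bbs8 KO and 10 in those of the Bbs8 WT mouse, also under that minimum, with a log2 ratio of -2.0 (-3.12 to -0.88) and overlapping sets. B cell-like cells, with 1409 cells in the Bbs8 KO but 127 in the Bbs8 WT mouse, read -0.21 (-1.14 to 0.89) for *S100a10* and -2.46 (-3.72 to -1.34) for *S100a6*, the latter from 22 and 10 UMIs. Stromal transcripts were also unequal in that class, where the pan-stromal list summed to 1983 CPM in the Bbs8 KO and 9056 CPM in the Bbs8 WT mouse, and the part of this in the *S100a6* value was not tested.

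Markers of other cells moved with genotype in the stromal class itself, and the pan-stromal list summed to 67197 CPM (62000.2 to 72806 over sets) in the Bbs8 KO and 83671 CPM (77045 to 93932) in the Bbs8 WT mouse. The part of that difference in the S100 values was not tested. The T cell list, with all 10 markers seen in both mice, summed to 819 CPM (643 to 995 over sets) in the Bbs8 KO and 187 CPM (0.0 to 220.3) in the Bbs8 WT mouse, and the B cell list to 1050.4 CPM (812 to 1300.4) and 239 CPM (35.0 to 289). The macrophage list summed to 836 CPM (555 to 1215) and 254 CPM (70.1 to 343), and the endothelial list to 447 CPM (314 to 560) and 109 CPM (13.3 to 167). The epithelial list was near equal, at 44.1 and 42.3 CPM. At least 1 UMI of an immune marker was present in 944 of 1949 stromal cells of the Bbs8 KO mouse (48.4%) and 128 of 772 of the Bbs8 WT mouse (16.6%). Without those cells *S100a6* had 727 and 1013.5 CPM, with a log2 ratio of -0.48 (-0.72 to -0.24). *S100a10* then read -0.56 (-0.80 to -0.33). Both were then short of 1.5-fold and the sets of *S100a6* overlapped. In P2-like cells the same step left -0.71 and -0.78. The sets of *S100a6* then overlapped there too, at 660.0 to 869.7 CPM in the Bbs8 KO and 627.2 to 1467 CPM in the Bbs8 WT mouse. Those of *S100a10*, at 438.6 to 692.9 and 702.2 to 1150 CPM, did not. A pooled stromal count of 4 lower members also fell to 2 without 1 Bbs8 KO set (KO5_p3) or either of 2 Bbs8 WT sets (WT3_p2, WT4_p2), and without WT4_p2 *S100a6* read -0.42.

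Counting cells instead of UMIs gave the same direction. A UMI of *S100a6* was found in 21.6% of stromal cells of the Bbs8 KO (19.8 to 23.5) and 29.3% of the Bbs8 WT mouse (26.1 to 32.6), and a UMI of *S100a10* in 21.4% (19.6 to 23.3) and 29.1% (26.0 to 32.5), at median depths of 313 and 314 UMIs. With each cell thinned to 200 UMIs, which kept 1562 and 671 cells, the shares were 11.4% and 19.2% for *S100a6* and 11.2% and 17.1% for *S100a10*. B cell-like cells, taken as a class that should lack the gene, had *S100a6* in 1.56% and 5.51% of cells at median depths of 256 and 239 UMIs. That is the same direction as in stroma. The pan-stromal list was unequal in this class, at 1983 and 9056 CPM, so it is no clean background. For *S100a10* no class was taken as background.

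For *Anxa3*, 33.2% (28.4 to 38.2) of P1-like cells of the Bbs8 KO and 26.3% (19.5 to 34.1) of the Bbs8 WT mouse held a UMI, against 4.44% and 0.355% of P2-like cells. B cell-like cells had 0.71% and 2.36%, the latter from 3 UMIs, and this class is no clean background because its stromal transcripts were unequal. The share in P2-like cells of the Bbs8 WT mouse was below both values. After thinning the P1-like shares were 16.4% and 16.3%.

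The S100 members are short, with median annotated transcripts of 417 to 715 bases. The 790 genes with transcripts of up to 1000 bases had a median log2 ratio of 0.07, the 3044 longer genes 0.04 and 56 ribosomal protein genes 0.19. This division was added after the values were seen, and the part of transcript length in the S100 ratios was not tested.

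Few other genes of the families had the depth to be compared. Of 20 further annexin and S100 genes 9 were in the table, 4 had the depth to be compared in stroma, 2 were higher by 1.5-fold and 0 lower, with a median of 0.49, where 17.3% of all genes were higher, 9.3% lower and the median was 0.05. *S100a16*, an S100 gene known to promote fat cell formation, had 358.5 CPM in the Bbs8 KO and 236 CPM in the Bbs8 WT mouse, a log2 ratio of 0.59 (0.24 to 0.98). Every Bbs8 KO set lay above every Bbs8 WT set, as for 4.59% of the 3902 genes, and *S100a16* was highest in P1-like cells at 583 and 297 CPM. *Anxa7* had 194 and 112 CPM (0.77, 0.27 to 1.35), *Anxa4* a log2 ratio of 0.39 (-0.12 to 0.97) and *S100a1* -0.35 (-1.19 to 0.48). Other scalings ended the call of *S100a16*, at 0.41 with TMM and 0.38 with DESeq2 size factors, and that of *Anxa7* with DESeq2 size factors (0.56) but not with TMM (0.59). *S100a8* and *S100a9*, the neutrophil pair, had 7 and 33 UMIs in the whole table.

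Of 16 listed binding partners 15 were in the table and 10 had the depth to be compared. *Sri* (sorcin) and *Calm2* were higher by 1.5-fold, 0 were lower, and the median was 0.26, so that the share of partners called higher was near the 17.3% of all genes. *Ahnak*, the scaffold bound by the complex of S100A10 and ANXA2, had 1287 and 1876.5 CPM, a log2 ratio of -0.54 (-0.69 to -0.40), just short of 1.5-fold. Every Bbs8 KO set lay below every Bbs8 WT set, which 19.5% of genes with at least 500 stromal UMIs, as *Ahnak* has, also showed. It passed 1.5-fold with TMM at -0.73 and with DESeq2 size factors at -0.75. TMM also raised the genes called lower in stroma from 363 to 680. *Myh9*, the myosin target of S100A4, read 0.33 (0.10 to 0.57) and *Cacybp*, a partner of S100A6, 0.05 (-0.74 to 0.90), which turned to -0.14 with TMM. *Plat*, the tissue plasminogen activator, read -0.28 (-0.53 to -0.02). *Fpr1* and *Fpr2*, receptors for ANXA1, had 0 UMIs, and *Fgf1* 33 in the table.

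Profiles over 27 groups of cells (a class in a mouse) were compared as log2 levels among 3659 genes. They share libraries, mice and depth, so the correlations are descriptions. *Anxa1* was most like *Klhl13* (r = 0.861), *Ogn* (0.859) and *S100a6* (0.833), and *S100a6* most like *Ogn* (0.835), *Anxa1* and *Tmed3* (0.825). *Anxa3* followed *Pi16* (0.743), which was among the markers that named P1-like cells, *Mxra8* (0.731) and *Mmp14* (0.71). *S100a4* followed *Cd44* (0.877), *Selplg* (0.816) and *Ehbp1l1* (0.8), and *Anxa6* followed *Cox6a1* (0.864), *Calm3* (0.845) and *Hnrnpc* (0.836). *Anxa2* was nearest to *Ifitm3* (0.846), *Tubb6* (0.821) and *Mtch1* (0.808), and *Anxa5* to *Dpysl3* (0.829), *Emp1* (0.795) and *Lamp2* (0.787).

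*S100a10* was nearest to *Mmp19* (0.786), *Tppp3* (0.783) and *Hsp90b1* (0.730). Its correlation with its partner *Anxa2* was 0.550, below that of *Anxa2* with *Anxa5* (0.745). *S100a11*, with few UMIs, was nearest to *Dsel* (0.802), *Agpat4* (0.751) and *Mbtps1* (0.739), and correlated with its partner *Anxa1* at 0.598. *S100a13* was nearest to *Ahnak* (0.701), *Cavin1* (0.654) and *Dst* (0.635).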

How the data were processed

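Cells of the stromal vascular fraction of inguinal fat from 1 Bbs8 KO and 1 Bbs8 WT mouse were profiled by Seq-Well S3. The authors aligned reads with STAR to mm10 through the Drop-seq tools, brought batches to like depth, kept cells by genes detected and mitochondrial share, and deposited 1 table of UMI counts, a whole number for each gene in each cell. Whether counting used strand is not given in the sources used here. Columns were assigned to genotype by their codes, and 5 labelled samples per genotype could not be matched to single sets.

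Cells were clustered in Seurat 5.3.0 (R 4.3.3) after anchor integration of the sets on 2000 variable features and 30 dimensions at resolution 0.8, with 19 annexin and S100 genes barred, and clusters were named from marker lists. Levels are summed UMIs of a class scaled to its total (CPM). Ratios carry 5 CPM, a gene needs 50 UMIs in the class, and a call is 1.5-fold. Intervals (95%, exact Poisson, exact conditional or Clopper-Pearson) cover counting error only. A count of 0 allows up to 3. With 1 mouse per genotype no test was run. Scaling used edgeR 4.0.16 and DESeq2 1.42.0 factors. Doublets were scored with scanpy 1.11.5 and the top 6% (654 cells) left out as an alternative only. The ratio step was tested on simulated data. All 10 members are named, with fixed lists of 20 family genes and 16 partners and the 3 genes most like each member. Members and lists were chosen with earlier results of these data known.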

Additional observations from a re-analysis of the deposited data

Results flagged for a closer look

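In 38 groups of 5 barcode sets, 2 sets stood apart from the other 4 by Dixon's criterion, where chance alone gives about 1 in 20, or 1.9. The set KO5_p3 had 378.0 CPM of *Anxa1* in stromal cells, below the other Bbs8 KO sets of 533 to 581 CPM. The set KO6_p2 had 939.5 CPM of *S100a10* in stromal cells, above the other Bbs8 KO sets of 579 to 680.3 CPM. Sets were treated as technical portions of 1 mouse.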

How the results depend on the processing

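Of 6229 values of the 10 members recomputed over 225 results and 31 alternatives, 5989 lay within the counting interval of the reported value (counts of members within 1.5 times, medians within their spread), 237 moved and 3 changed sign after counting error or the call had set them apart from 0. With no such condition, 144 of 2037 ratios of single genes had another sign. The 3 were *Anxa6* in P1-like cells, Bbs8 KO over Bbs8 WT, the 1 that was called, at -0.51 with thinned cells and, both under the minimum of 50 UMIs, *Anxa3* in P2-like cells at -0.19 with cells called by markers, and *S100a13* in P3-like cells at 0.10 with thinned cells. The count of 4 lower members in stroma was 2 with cells weighted equally, with a pseudocount of 20 CPM, with thinned cells and with KO5 over WT3, KO5 over WT4 or KO6 over WT3, 1 with KO6 over WT4 and 0 without stromal cells with an immune marker. It was 2 to 4 with 1 set left out. The count of 0 higher was 1 with KO5 over WT4. With 1 set left out *S100a6* lay between -0.71 and -0.42 (without WT4_p2), and under the other alternatives between -0.85 (DESeq2 size factors) and -0.46 (KO6 over WT3). *S100a10* lay between -0.74 and -0.54 and between -0.85 (KO5 over WT3) and -0.49 (KO6 over WT4).

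In P1-like cells, the count of 1 higher was 2 without a minimum of UMIs and 0 with thinned cells, without immune-marked cells, with at least 200 genes per cell and in each of the 4 pairs of set numbers. Without immune-marked cells *Anxa6* had 39 and 9 UMIs, under the minimum of 50, at a log2 ratio of 1.26. Leaving out KO5_p3, KO6_p2 or KO6_p3 gave 0, so the range was 0 to 1. The count of 1 lower was 2 without a minimum and with cells called by markers, and 0 with thinned cells, without immune-marked cells and with KO6 over WT3 or WT4. It was 0 without KO5_p3 or WT4_p2. In P2-like cells, the count of 1 higher was 0 with cells weighted equally, at resolution 0.4 and with KO5 or KO6 over WT3. It was 2 without a minimum, with family genes among the features, without integration, at resolution 1.2 and with KO6 over WT4, and 0 to 1 with 1 set left out (0 without KO6_p1 or WT4_p3). The count of 2 lower was 1 with thinned cells, with family genes among the features and at resolution 1.2, and 4 with KO6 over WT3.

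For P1-like over P2-like cells of the Bbs8 KO mouse, the count of 2 higher was 4 with TMM or DESeq2 factors, without immune-marked cells, without doublets and with at least 200 genes, and 2 to 4 with 1 set left out (4 without KO5_p2 or KO5_p3). The count of 1 lower was 0 with cells called by markers, and the median was 0.52 without a minimum. In the Bbs8 WT mouse, the count of 2 higher was 4 without a minimum, 0 with thinned cells and 1 with at least 200 genes, and 1 to 2 with 1 set left out (1 without WT4_p2). The log2 ratios of *Anxa1* and *Anxa3* stayed at or above 1.51 and 2.76 under the alternatives that leave out no single set, and at or above 1.45 and 4.43 with 1 set left out. The count of 2 lower was 1 with thinned cells, at resolution 1.2, without immune-marked cells and with at least 200 genes, and 1 to 2 with 1 set left out (1 without WT3_p1, WT3_p2, WT4_p2 or WT4_p3). The median was 0.42 with family genes among the features. Apart from the UMI minimum, the cause was not tested. No paired analysis was possible because set codes could not be tied to labelled replicates and no test was run. In an alternative chosen after seeing the data, the count of 2 higher family genes in stroma was 1 with TMM and 0 with DESeq2 size factors, and the count of 0 lower partners was 1 with each. Scaling turned the split of higher and lower calls over all genes from 91 and 86 to 124 and 59 in P1-like cells and from 236 and 183 to 183 and 244 in P2-like cells with TMM.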
